A study of Mus musculus with 59 samples.

Results

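The 4 pore-forming AMPA receptor subunit genes Gria1, Gria2, Gria3 and Gria4 and the 6 genes of the transmembrane AMPA receptor regulatory proteins (TARPs), Cacng2, Cacng3, Cacng4, Cacng5, Cacng7 and Cacng8, were followed in embryoid bodies containing spinal motor neurons that had been exposed to mouse serum. They were matched by symbol, and all 10 were found among the 19613 genes measured. The genes were selected on the difference between the 2 kinds of serum in these same arrays (Cacng3 lower with carrier serum in every run, Gria genes slightly higher), so the serum changes of these 10 genes are given as descriptions, with standard errors and without p-values.

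The embryoid bodies came from 1 mouse embryonic stem cell line, HBG3 HB9, which carries a fluorescent reporter of the motor neuron gene Mnx1 (HB9). They are mixtures in which motor neurons are only some of the cells. Serum came from mice hemizygous for a mutant human SOD1 transgene, a model of amyotrophic lateral sclerosis (29 arrays, carrier serum), or from wild-type littermates without it (30 arrays, non-carrier serum). The donors were F1 progeny of C57BL/6 and SJL, and no gene was altered in the exposed cells to make the groups. Exposure lasted 24 h. The labels give 53 arrays a time point of 9 weeks and the other 6 one of 10 weeks. Their wording ties it to the cultures, but the cultures were only days old by the study's methods and the donors, pre-symptomatic males, were about that age, so it is likely the age of the donors. No label names a batch, and so the arrays were sorted by the wording or numbering of their titles into 9 runs, called motorneuron, HB9MNs, A to F and 10-week. Each run held both kinds of serum, with 4 to 11 arrays in all, whereas the 10-week time point and its run cannot be told apart. By the study's methods, each assay exposed embryoid bodies to a serum sample, and several assays shared a batch of embryoid bodies. No label names the donor or the culture of an array, so p-values measure the spread between these arrays.

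AMPA receptors are tetramers of the GluA1 to GluA4 proteins, which the Gria genes encode, and they carry most fast excitatory transmission in the central nervous system. Receptors without edited GluA2 let calcium through, a property long studied in motor neurons. TARPs are 4-pass membrane proteins that bind these tetramers, bring them to synapses and slow their closing. Cacng2 (stargazin, gamma-2), Cacng3 (gamma-3), Cacng4 (gamma-4) and Cacng8 (gamma-8) are the type I TARPs, and Cacng5 (gamma-5) and Cacng7 (gamma-7) the type II TARPs.

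Values are log2 intensities of Affymetrix mouse exon arrays, with the mean of all exons standing for a gene, so flip, flop and other splice forms were not told apart. Because each gene has its own probes, each was compared only with itself across arrays. As a gauge of signal from genes that these cells should lack, the 1032 olfactory receptor genes on the array were used. By its mean over all arrays, every one of the 10 genes lay above at least 98.9% of them, Cacng3 being the nearest to them and Gria2, Cacng4 and Cacng7 lying above 100% of them. On single arrays Cacng3 was below their 95th percentile (6.31) on 5 carrier arrays and 1 non-carrier array, of the runs motorneuron, HB9MNs and B, so in those runs its differences were read near background. The motor neuron genes Mnx1, Isl1, Lhx3 and Chat each lay above at least 99.9% of the olfactory receptor genes, whereas 3 of 4 genes of pluripotent cells were below their 95th percentile.

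The start region of Gria4 is shown as an example of a Gria gene that was higher with carrier serum in most runs, with CpG dinucleotides in capitals. It holds 300 bases of RefSeq on GRCm38.p6, from 250 bases before the annotated start, and lies at chr9:4796185-4796484 on the minus strand.
Gria4: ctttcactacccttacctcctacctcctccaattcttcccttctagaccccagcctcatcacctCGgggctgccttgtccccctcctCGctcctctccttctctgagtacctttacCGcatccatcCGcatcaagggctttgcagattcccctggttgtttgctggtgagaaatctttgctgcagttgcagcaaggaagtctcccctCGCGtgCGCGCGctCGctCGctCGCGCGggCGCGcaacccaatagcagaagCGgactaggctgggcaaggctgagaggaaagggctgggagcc
The Gria4 window held 17 CpG dinucleotides, fewer than those of Gria2 (26) and Cacng2 (20), and the median over 32851 windows was 7. The windows of Cacng5 held 17 and 5, that of Cacng7 15 and that of Cacng8 2. None of the 7 windows used for 6 of the genes held the letters TGATGNAA, TGACGTCA or TAATTA on either strand, which occurred in 3.97%, 1.79% and 5.29% of all windows. The GC box GGGCGG occurred in 1 window of Cacng5 and in that of Cacng7, against 35.7% of all windows. Gria1, Gria3 and Cacng4 had no entry.

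Cacng3, whose protein gamma-3 is a forebrain-enriched type I TARP, was the member with the clearest difference. Its log2 intensity ran from 6.04 (median 7.21) to 8.21 on carrier arrays and from 6.26 (median 7.58) to 8.96 on non-carrier arrays. The groups thus overlapped across runs, since the runs themselves lay far apart. Within runs, the carrier mean was below the non-carrier mean in 9 of 9 runs, which was a property of 1.11% of all genes. In 6 of 9 runs every carrier array was below every non-carrier array, which held in 6 or more runs for 0.265% of all genes. Both counts used the values on which Cacng3 was selected.

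The Cacng3 difference ranged from -0.96 to -0.06 over the runs, and whether runs differed in it was not tested. In run F the carrier arrays read 6.77, 6.49 and 6.81 and the non-carrier arrays 7.61, 7.40 and 7.93, a difference of -0.96. In run B the carrier arrays read 6.62, 6.40 and 6.27 and the non-carrier arrays 7.05, 6.79 and 8.0, a difference of -0.85. There a single non-carrier array stood well above the rest, yet the lowest non-carrier array was still above all carrier arrays. In run E, where Cacng3 was highest, carrier arrays read 7.94, 7.70 and 8.21 against 8.83, 8.96 and 8.46, a difference of -0.80. The 10-week run gave 7.28, 7.43 and 7.17 against 8.72, 7.45 and 7.91, a difference of -0.73. The gap between the nearest arrays of the 2 groups was small in that run, because non-carrier arrays were spread with an SD of 0.65 (n = 3) and carrier arrays with an SD of 0.13 (n = 3).

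Smaller differences were measured in the other 5 runs. Run D gave carrier values of 7.49, 7.29 and 7.45 and non-carrier values of 7.65, 8.03, 7.77 and 7.68, a difference of -0.37 with no overlap. HB9MNs gave 6.13 and 6.29 against 6.50 and 6.42, a difference of -0.25, again with no overlap. The arrays overlapped in the remaining 3 runs, with differences of -0.16 in run C, -0.13 in motorneuron and -0.06 in run A. Run A, with the smallest difference, had a mean Cacng3 level of 7.60, close to the 7.66 of the 10-week run, where the difference was -0.73.

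**Figure D1:**
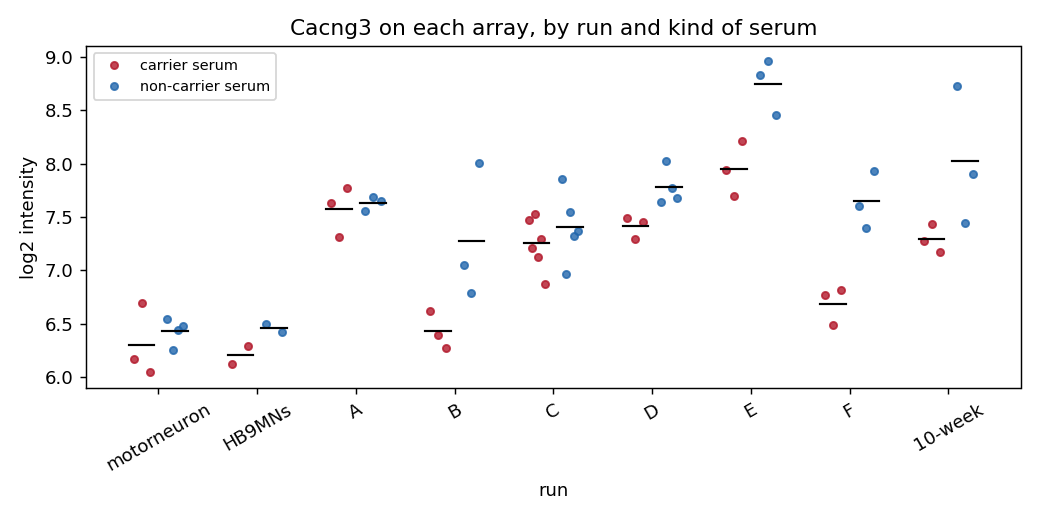
Log2 intensity of Cacng3 (vertical axis) on each of the 59 arrays, by run (horizontal axis) and kind of serum; points are arrays and black lines are means. Carrier arrays lie below all non-carrier arrays in HB9MNs, B, D, E, F and 10-week, and overlap with them in motorneuron, A and C.

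Fitted over all arrays with the run as a block in limma, Cacng3 fell by 0.45 on the log2 scale (SE 0.08), a fold of 1.37. At a threshold of 0.05 on the adjusted p, 1.65% of all genes were called lower and 0.683% higher. Of the 10 genes 1, Cacng3, was called lower and 0 higher, and nothing is read from these counts, since the choice of genes used the same contrast. Only 2 genes of the array had a larger fall. The SD of Cacng3 within runs and serum kinds was 0.29, larger than that of 94.2% of genes. In bulk embryoid bodies, fewer cells that express Cacng3 and less Cacng3 RNA per cell cannot be told apart.

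Among the pore subunits, Gria3 and Gria4, which encode GluA3 and GluA4, were slightly higher with carrier serum. The Gria3 values ran from 8.71 (median 9.30) to 9.53 on carrier arrays and from 8.61 (median 9.14) to 9.44 on non-carrier arrays. Its fitted difference was 0.09 (SE 0.03), and it was higher in 8 of 9 runs, run F being the exception. In 5 runs, HB9MNs, A, B, D and 10-week, every carrier array was above every non-carrier array. In the 10-week run, for example, carrier arrays of Gria3 read 9.44, 9.44 and 9.53 and non-carrier arrays 9.30, 9.30 and 9.23. That run gave the largest difference of Gria3, 0.19. Over all genes, 1.18% had every carrier array above every non-carrier array in 4 or more runs, and the share for 5 or more was not counted.

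Gria4 ran from 8.84 (median 9.39) to 9.70 on carrier arrays and from 8.62 (median 9.30) to 9.69 on non-carrier arrays. Its fitted difference was 0.08 (SE 0.02), with 8 of 9 runs higher and run C the exception. In run D its carrier arrays read 9.43, 9.46 and 9.43 and its non-carrier arrays 9.30, 9.32, 9.30 and 9.31, so that the groups were narrow and apart. They were also apart in HB9MNs, E and 10-week, 4 runs in all. Carrier arrays were all above non-carrier arrays in 4 or more runs for 1.18% of all genes, and 6.87% of all genes were higher in 8 or more runs. The 4 Gria genes were also a gene set that the study chose as higher on most of these arrays, so their direction is not independent evidence.

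Gria1 and Gria2 showed no common direction. Gria1, which encodes GluA1, was higher with carrier serum in 7 of 9 runs, by 0.18 in run D and 0.13 in HB9MNs, where the arrays did not overlap, but lower by 0.27 in run C. Its fitted difference was 0.02 (SE 0.04). The share of all genes whose arrays were apart in as few runs was not counted. With 11 arrays, run C exceeds the group size of the study's assays and must span several batches of cells. Parted into 2 blocks by the order of its arrays, run C gave -0.21 and -0.28 for Gria1, so both blocks had the same sign. The same parting gave -0.00 and -0.31 for Cacng3 and 0.06 and -0.07 for Gria4. Without run C the fitted difference of Gria1 was 0.09 (SE 0.03). Gria2, whose edited GluA2 protein keeps calcium out, had a fitted difference of 0.00 (SE 0.02), with 4 runs higher and 5 lower. Its carrier arrays were below all non-carrier arrays in run F (10.57, 10.51 and 10.57 against 10.67, 10.62 and 10.63). In run C it was higher by 0.12, opposite to Gria1.

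**Figure D2:**
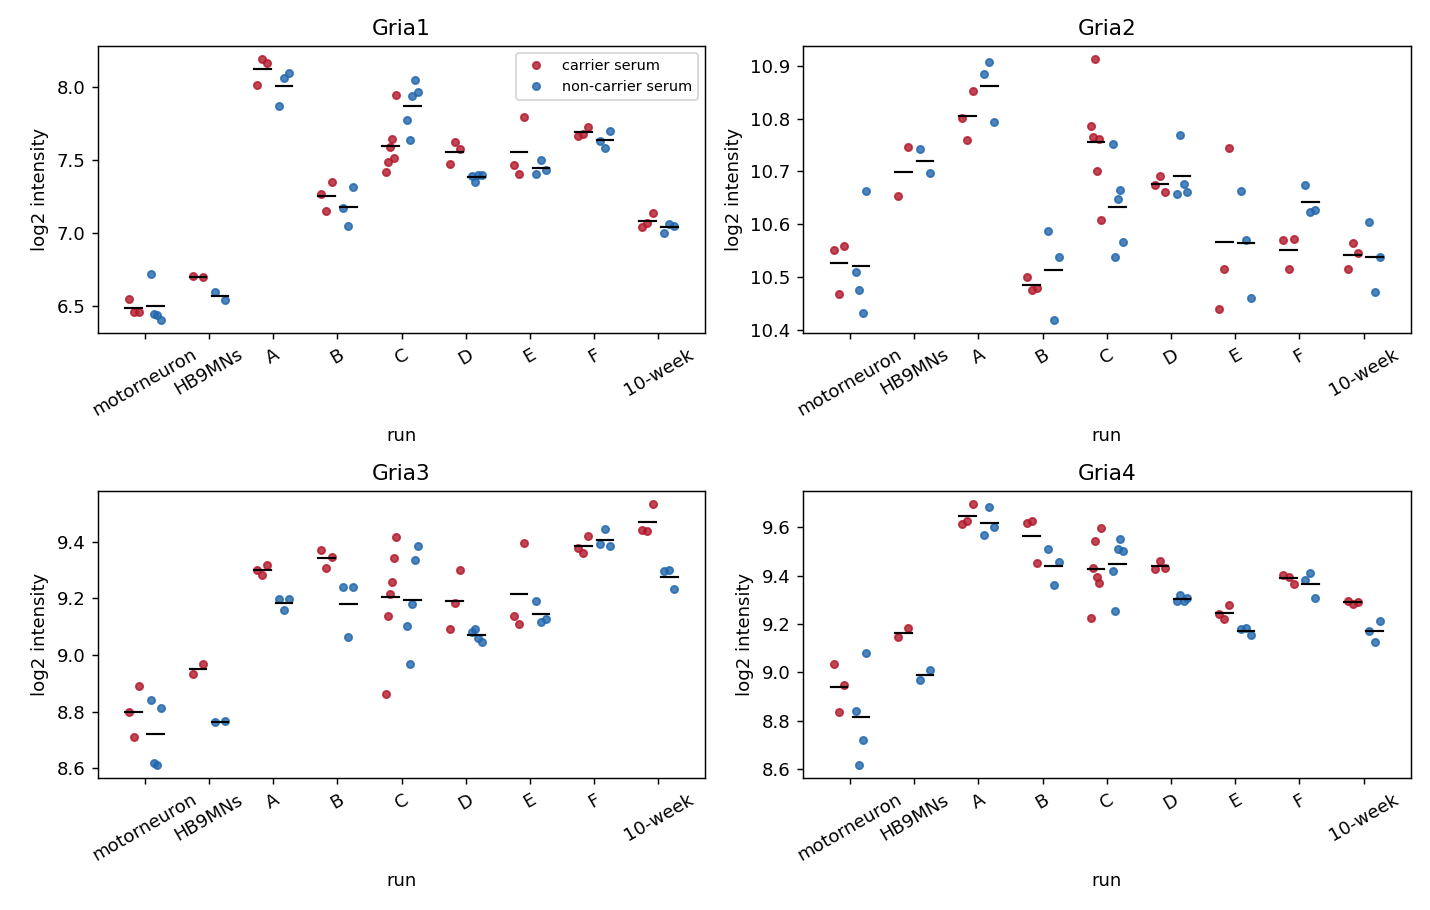
Log2 intensity (vertical axes, scaled separately) of Gria1, Gria2, Gria3 and Gria4 on each of the 59 arrays, by run (horizontal axes) and kind of serum; points are arrays and black lines are means. Carrier arrays lie above all non-carrier arrays in 5 runs for Gria3 and in 4 runs for Gria4.

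The other TARPs differed little by serum. Cacng2, the founding TARP, was higher in 8 of 9 runs with a fitted difference of 0.04 (SE 0.03), but its arrays overlapped in every run, and in run C it was lower by 0.17. Cacng8, a TARP best known from the hippocampus, had a fitted difference of 0.01 (SE 0.04). Cacng4, which is expressed early in development, had one of -0.02 (SE 0.03), which turned to 0.06 (SE 0.02) with 4 motor neuron genes as covariates beside the run. For the type II TARPs the fitted differences were 0.02 (SE 0.03) for Cacng5 and -0.01 (SE 0.05) for Cacng7. Run by run, these 4 genes had between 3 and 4 runs lower, except Cacng5 with 2. The median of the 10 fitted differences was 0.02, that of the 6 TARPs 0.00 and that of all genes 0.02.

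**Figure D3:**
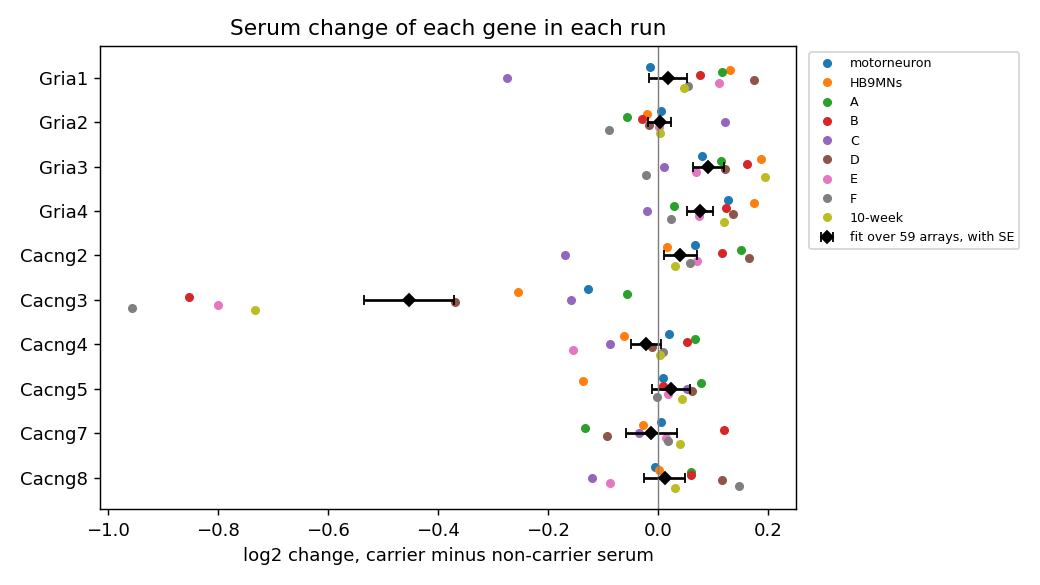
Carrier minus non-carrier difference in log2 intensity (horizontal axis) of each gene (vertical axis) in each of the 9 runs (coloured points), with the value fitted over 59 arrays and its SE (black diamonds). Cacng3 is below 0 in every run, from -0.96 in run F to -0.06 in run A, while the fitted values of the other 9 genes lie between -0.02 and 0.09.

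Beside these differences, signs of other cells and of array background were measured. The mean log2 intensity of the olfactory receptor genes was higher with carrier serum in 8 of 9 runs, by 0.06 on average. Within runs and serum kinds it had a Pearson r of -0.26 with Cacng3, 0.14 with Gria3 and -0.18 with Gria4 over 59 arrays. With this mean as a covariate, a setting chosen after seeing the data, the difference of Cacng3 was -0.39, that of Gria3 0.09 and that of Gria4 0.09. Of the marker lists, motor neurons had 1 of 7 genes called higher with carrier serum (Slc5a7, the choline transporter, 0.15, SE 0.04, limma adjusted p = 0.0410). General neuronal genes had 2 of 7 called higher, Snap25 (0.07, SE 0.02, limma adjusted p = 0.0166) and Stmn2 (0.06, SE 0.02, limma adjusted p = 0.0400). Of the astrocyte list, 1 of 4 was called lower, the glutamate transporter Slc1a2 (-0.07, SE 0.02, limma adjusted p = 0.0307). Slc1a2 was lower in 9 of 9 runs. The rest of these lists did not lean the same way. Of the motor neuron genes 4 had lower values, Lhx3 (-0.09), Lhx4 (-0.05), Mnx1 (-0.03) and Chat (-0.02), and the median of the list was -0.02. Of the general neuronal genes 3 had lower values, Rbfox3 (-0.06), Tubb3 (-0.03) and Elavl3 (-0.01), with a list median of 0.00. The other 3 astrocyte genes had higher values, Aqp4 (0.06), Gfap (0.03) and Aldh1l1 (0.02), with a list median of 0.03. Over all genes 0.683% were called higher and 1.65% lower. The summed intensity of the motor neuron list ran from 4320 (median 5189) to 5786 with carrier and from 4295 (median 5127) to 5541 with non-carrier serum. That of the astrocyte list ran from 575 to 890 and from 570 to 894. For general neurons it ran from 20548 to 26423 and from 20148 to 25495. The other 8 marker lists had 0 genes called. No list had a gene at 0, and the part of these cells in the differences of Cacng3, Gria3 and Gria4 was not tested.

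The other genes of the AMPA receptor pathway were read from lists of 44 genes, of which 37 were measured. Shisa8, Prrt2, Pick1, Dlg1, Dlg2, Adarb1 and Cacng6 were not analysed here. By serum, 0 rose and 2 fell past the limma threshold, beside 0.683% and 1.65% of all genes. An unadjusted p under 0.05 was found for 9 of 37, beside 20.7% of all genes, and the median difference was 0.00 beside 0.02 over all genes. Adar, an adenosine-to-inosine RNA editing enzyme whose paralogue Adarb1 edits the Gria2 transcript, fell by 0.11 (SE 0.02, limma adjusted p = 0.0104). It was lower in 8 of 9 runs, with means of 8.55 ± 0.14 (SD, n = 29) and 8.66 ± 0.14 (SD, n = 30). Cpt1c, an endoplasmic reticulum protein that helps AMPA receptors leave for the surface, fell by 0.06 (SE 0.02, limma adjusted p = 0.0401). It was lower in 7 of 9 runs, with means of 9.16 ± 0.16 (SD, n = 29) and 9.22 ± 0.12 (SD, n = 30). With run B, D or F left out 0 of 37 genes were called, and Cpt1c was also lost without motorneuron, A, E or 10-week, where 1 gene, Adar, was called.

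The remaining auxiliary subunits and assembly proteins had 0 of 17 called higher and 1 of 17 called lower, that 1 being Cpt1c. The largest differences among those not called were 0.10 (SE 0.03) for Vwc2l, a brorin-like secreted protein, 0.09 (SE 0.05) for Olfm3, an olfactomedin found with AMPA receptors, and -0.07 (SE 0.03) for Porcn. The cornichon genes were at -0.00 (Cnih2) and 0.07 (Cnih3), and the Shisa genes between -0.03 and 0.02. Of 17 traffic and scaffold genes, 0 were called. The largest differences there were 0.05 (SE 0.02) for Snx27, which recycles receptors, 0.04 (SE 0.04) for Nptx2, a pentraxin that clusters AMPA receptors, -0.07 (SE 0.04) for Arc, an immediate early gene that removes receptors from synapses, and -0.04 (SE 0.02) for Dlg3 (SAP102). Cacng1, a calcium channel subunit of muscle, was at -0.02 (SE 0.04). Adarb2 was at 0.01 (SE 0.02).

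The choice of genes used the serum difference, for Cacng3 its direction in every run, and named no difference in level between runs. For each of the 10 genes the span between run means was larger than its fitted serum difference. A span is taken between the extremes of 9 run means and the fitted difference is pooled over runs. The span would thus be the larger for almost any gene, and it cannot rank runs against sera. All 10 genes passed the limma F test over runs, as did 94.0% of all genes, so this is not particular to them. The run took from 51.8% (Cacng4) to 93.6% (Gria1) of the variance of a gene's log2 intensity. The median over all genes was 62.5%, and 9 of the 10 lay above it.

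Cacng3 spanned 2.02 log2 units between run means, from 6.33 in HB9MNs, which is close to the 95th percentile of the olfactory receptor genes, to 8.35 in run E (limma F test over runs, adjusted p = 1.3e-14). Its order was HB9MNs, motorneuron, B, F, C, D, A, 10-week and E, and in 5 of 8 steps between neighbours the gap was smaller than the SD within runs. That span was larger than its serum difference in any run. It lies between the extremes of all run means, so it is not a like measure and ranks nothing.

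Gria1 spanned 1.57, from 6.49 in motorneuron to 8.06 in run A (adjusted p = 9.8e-26 by the same limma test), with 2 of 8 neighbouring steps under its SD within runs. Gria3 spanned 0.64, from 8.76 in motorneuron to 9.40 in run F, and Gria4 0.76, from 8.88 in motorneuron to 9.63 in run A. Gria2 spanned 0.33, from 10.50 in run B to 10.83 in run A, and so was the steadiest Gria gene. In 6 of 8 steps its neighbours lay closer than the SD within runs.

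Among the TARPs, Cacng2 (7.68 to 8.36), Cacng4 (10.12 to 10.45) and Cacng8 (7.25 to 7.87) were highest in run A, as were Gria1, Gria2 and Gria4. The type II TARPs had another order. Cacng7, known from cerebellum, was highest in motorneuron at 10.18 and lowest in run F at 8.82. Cacng5 was likewise highest in motorneuron, at 8.02, and lowest in run E, at 7.08. Gria1, Gria3, Gria4, Cacng2 and Cacng4 were lowest in motorneuron. The olfactory receptor mean was also highest in motorneuron (4.94, against 4.55 to 4.70 in the other runs), and over the 9 run means it had an r of 0.66 with Cacng5, 0.59 with Cacng7 and between -0.68 and -0.19 with the other 8 genes. Its part in the run levels was not tested.

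**Figure D4:**
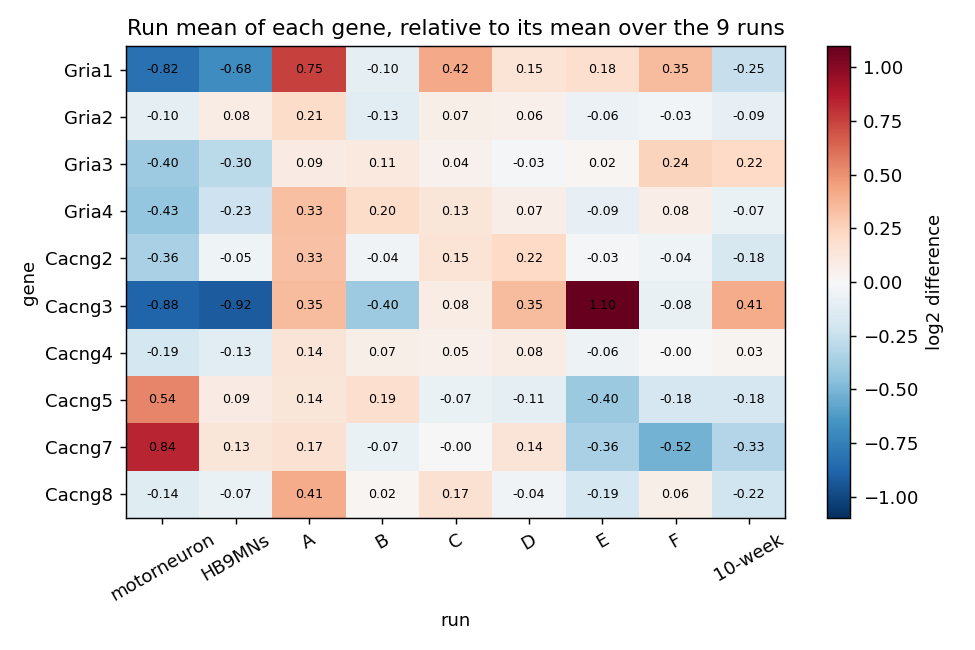
Mean log2 intensity of each gene (rows) in each run (columns) minus the mean of that gene over the 9 runs, in log2 units; red is above and blue below that mean. Cacng5 and Cacng7 are highest in motorneuron, where Gria1, Gria3, Gria4, Cacng2 and Cacng4 are lowest, and Cacng3 is highest in run E.

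After the means of each run and serum kind were taken off, the 10 genes could be compared over 59 arrays without the differences between those means. Run C was centred as 1 run, so any step between its 2 blocks stayed in the deviations used here and below. The means of these blocks were 7.60 and 7.84 for Gria1, 9.05 and 9.32 for Gria3, and 9.37 and 9.49 for Gria4. Arrays may share batches that no label names, so these correlations are descriptions. Of 45 pairs, 3 had an r above 0.5. They were Gria1 with Gria3 (r 0.69, rho 0.49), Gria3 with Gria4 (r 0.64, rho 0.45) and Gria2 with Cacng3 (r 0.54, rho 0.54). Without the 2 arrays farthest from the median of the gene named first in each pair, r was 0.61, 0.50 and 0.51. Arrays extreme only for the gene named second were thus kept. The same rule was used for the pairs below, with runs in place of arrays for run means. A further 2 pairs were below -0.5, Gria2 with Cacng4 (r -0.59, rho -0.46, and r -0.46 without 2 arrays) and Gria4 with Cacng5 (r -0.51, rho -0.40, and r -0.46 without 2 arrays). Of the marker lists, the mean log2 intensity of the motor neuron progenitor genes had an r of 0.74 with Cacng4 (rho 0.56) and -0.60 with Gria2 (rho -0.48). That of the motor neuron genes had one of 0.64 with Cacng4 (rho 0.44). With Gria1, r was 0.69 for the 2 glutamatergic neuron genes (rho 0.64), 0.62 for the astrocyte genes (rho 0.46) and 0.57 for the oligodendrocyte lineage genes (rho 0.44). With Cacng5, it was 0.69 for the interneuron genes (rho 0.60) and 0.68 for the skeletal muscle genes (rho 0.62). The part of any cell type in these values was not tested. With the other 3 Gria genes Cacng3 had an r between 0.02 and 0.09.

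**Figure D5:**
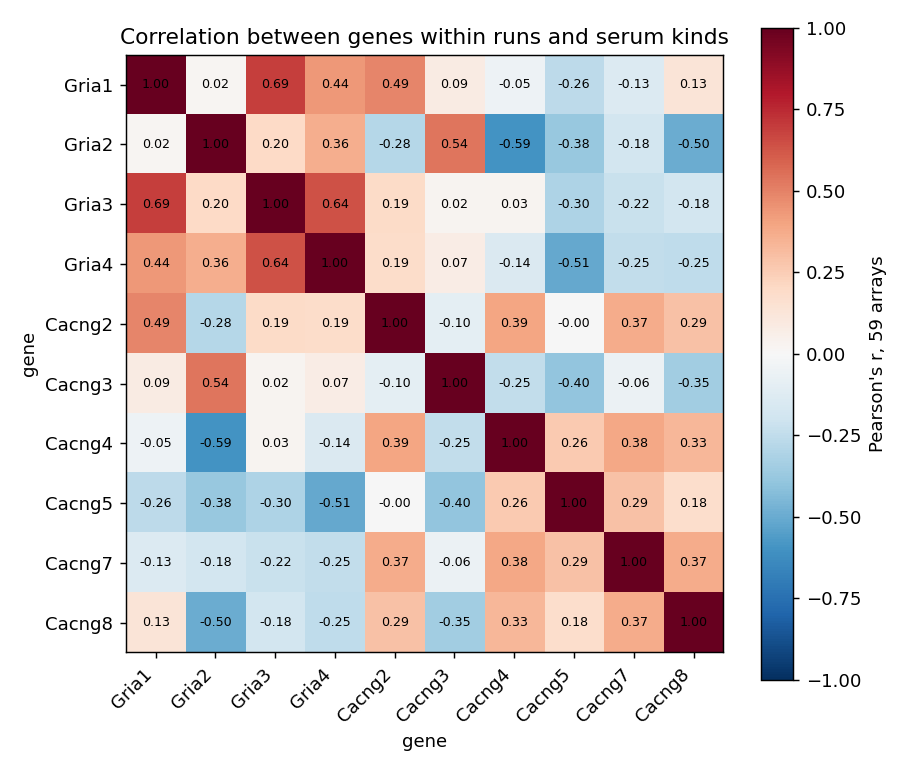
Pearson's r between the 10 genes (rows and columns) over 59 arrays after the means of each run and serum kind were taken off. The highest values are those of Gria1 with Gria3 (0.69), Gria3 with Gria4 (0.64) and Gria2 with Cacng3 (0.54), and the lowest is that of Gria2 with Cacng4 (-0.59).

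Over the 9 run means, 7 of the 45 pairs had an r above 0.8. Gria4 and Cacng4 had one of 0.95 (rho 0.87, and r 0.83 without 2 runs), Gria1 and Gria4 one of 0.87 (rho 0.77, 0.62 without 2 runs) and Cacng5 and Cacng7 one of 0.86 (rho 0.77, 0.62 without 2 runs). The rest were Gria1 with Cacng2 (0.82, and 0.80 without 2 runs), Gria1 with Cacng4 (0.82 and 0.37), Gria4 with Cacng2 (0.81 and 0.69) and Gria2 with Cacng2 (0.81 and 0.81). Below that cut, Gria1 with Gria3 went from 0.71 to -0.24. Gria3 and Cacng7 had an r of -0.83 (rho -0.68, and r -0.67 without 2 runs). The same probes are read on every array, and the overall signal of an array is shared by all genes on it.

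The genes whose deviations within runs were most like those of Cacng3, over all 19613 genes, were Aldh1l2, a mitochondrial folate enzyme (r 0.72, rho 0.56, 0.60 without 2 arrays), Cryzl1 (r 0.71), the chromatin gene Phf10 (r 0.70), Cth, cystathionine gamma-lyase (r 0.69), and Lars, leucyl-tRNA synthetase (r 0.67). By serum, Aldh1l2 fell by 0.24 (SE 0.05, limma adjusted p = 0.00739), Cth by 0.42 (SE 0.08, limma adjusted p = 0.00303), Phf10 by 0.20 (SE 0.05, limma adjusted p = 0.0181) and Lars by 0.18 (SE 0.05, limma adjusted p = 0.0400). Cryzl1 was at -0.08 (SE 0.03, limma adjusted p = 0.134). Aldh1l2 and Phf10 were lower in 7 of 9 runs and Cth, Lars and Cryzl1 in 6 of 9. The most unlike were Tctn2 (r -0.64) and Mvk (r -0.63), which makes an early sterol precursor. Over the run means, Glb1l, Cpt1a, Macrod2, Ric3 and Nfx1 were most like Cacng3 (r between 0.96 and 0.97, n = 9). Their rho ran from 0.75 (Nfx1) to 0.98 (Glb1l). They are the highest of 19613 genes over only 9 points, so no link to Cacng3 is read from them.

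The other 9 genes had different nearest neighbours within runs. Gria1 was most like Pld1 (r 0.83), Sash1 (0.82) and Ryr2 (0.81), Gria2 most like Vps13c (0.85), Strn3 (0.83) and Fcho2 (0.83), Gria3 most like Pcdhb18 (0.84), Cdh6 (0.83) and Csmd3 (0.82), and Gria4 most like Herc3 (0.83), Fam120b (0.78) and Lrp1b (0.77). Among TARPs, Cacng2 was most like Ablim3 (0.71), Nlgn3 (0.71) and Adcyap1r1 (0.68), and Cacng8 most like Srcin1 (0.66), Cad (0.64) and Pak4 (0.62). Cacng4 was most like Phc2 (0.89, rho 0.65), Atp13a2 (0.88, rho 0.70) and Ncln (0.88, rho 0.73). Cacng7 was most like Vamp2 (0.89), the synaptic vesicle SNARE, Cic (0.87) and Samd4b (0.86). Cacng5 was most like Sftpb (0.88), a lung surfactant protein gene, Krtap9.1 (0.85), a hair keratin associated protein gene, and Lamc3 (0.85). Of the 10 genes, Cacng5 was also the one whose deviations were most like those of the olfactory receptor mean (r 0.46, rho 0.52).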

How the data were processed

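RNA of embryoid bodies on 59 Affymetrix mouse exon arrays was examined. The authors made the deposited intensities, which are linear, with RMA as implemented in aroma.affymetrix, taking the mean of all exons of a gene. The labels name Affymetrix Expression Console and RMA. The scale of that mean, log or linear, is not given in the sources used here. RMA draws the arrays' distributions together, so shifts common to most genes are not seen. The 10 genes, the gene lists and the marker lists were chosen with earlier results of these data known.

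Log2 intensities were taken with a pseudocount of 0. All genes were kept. Array medians ran from 151 to 183 in linear intensity. How many arrays there are limits the precision. R 4.3.3 and limma 3.58.1 (lmFit, eBayes) gave the two-sided test of serum, blocked by run, and its p-values were adjusted over 19613 genes by the method of Benjamini and Hochberg, with 0.05 as the threshold. Runs were compared by limma's F test with serum as a covariate. Summaries were made in Python 3.11.15 with pandas 2.3.3. The fit and the correlations were tested on simulated data. Named genes were the 10 genes, the pathway genes past the threshold, the 2 largest rises and 2 largest falls of each list, and the genes most like each of the 10 by Pearson's r. The marker genes and the pathway genes given in ranges were named after their values were seen. List symbols were matched to the file through RefSeq synonyms (GRCm38.p6). Alternatives covered the block, 4 motor neuron genes as covariates, normalization, a filter on dim genes, the pseudocount, the variance model, array weights and each run left out. The 4 genes were Olig2, Mnx1, Isl1 and Lhx3, which the study used to correct for batches of neurons. The study's correction, a ratio to expression predicted from non-carrier assays, was not repeated here. Of the genes and sequences this covers, 1 of each is not reported here.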

Additional observations from a re-analysis of the deposited data

Results flagged for a closer look

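Within each run and kind of serum with 4 to 10 arrays, the array at either end was set against the rest. Of 40 such sets of values 6 had an array standing apart, where chance flags about 1 in 20, or 2.0 here. The sets are the 10 genes read on the same arrays and are not independent, so no excess is read from these counts. The gap of the array to its nearest neighbour, as a share of the whole range, is given for each. Non-carrier array 1 of the motorneuron run stood above the other 3 for Gria1 (0.866, at 6.71 against 6.40 to 6.45), Cacng2 (0.956, at 7.94 against 7.54 to 7.56) and Cacng7 (0.832, at 10.53 against 10.02 to 10.11). In run D, a non-carrier array stood below the others for Gria1 (0.881, at 7.35 against 7.39), and another non-carrier array stood above them for Cacng2 (0.832, at 8.28 against 8.12 to 8.15). In run C, a non-carrier array stood above the others for Cacng5 (0.819, at 7.73 against 7.24 to 7.33). That array of run C was also 1 of 2 arrays that Grubbs' test of the average correlation within runs called. The other was a carrier array of run E, where Cacng4 read 9.83 against 10.35 on the other carrier arrays of that run.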

How the results depend on the processing

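As a description of genes selected on this contrast, the difference of Cacng3 ran from -0.53 to -0.38 over 21 alternatives, and the filter on dim genes left it out. That of Gria3 ran from 0.08 to 0.16 and that of Gria4 from 0.05 to 0.17 over 22. Gria1 moved to 0.17 with 4 motor neuron genes in place of the run, and without run C it was 0.09. With the 4 genes beside the run Gria2 was -0.05 and Cacng4 turned from -0.02 to 0.06.

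The share of all genes called by serum, 2.33%, was 0% with no run block, 31.2% with the 4 genes beside the run, 0.275% with them in its place, 6.68% with dim genes left out and 14.3% with array weights. Leaving out each run in turn gave 0.540% (without D) to 8.16% (without C). Of the genes called 29.3% were higher, against 40.5% after quantile normalization, 42.7% without run C, 44.7% without the 2 arrays called by Grubbs' test, 48.6% with array weights, 64.5% with the 4 genes beside the run and 7.41% with them in its place. The other AMPA receptor genes called, 2 in the reported fit, numbered 0 with no run block, 14 with the 4 genes beside the run, 0 with them in its place, 6 with array weights, 1 with quantile normalization and 0 to 5 with a run left out. In 2 settings chosen after seeing the data, leaving out the 2 arrays called by Grubbs' test gave 3.65% of genes, and the olfactory receptor mean as a covariate gave 0.576% of genes and 0 other AMPA receptor genes. The cause of these shifts was not tested.

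In the replicate block of 8 numbered pairs (16 arrays), 0% of genes and 0 other AMPA receptor genes were called, and Gria4 moved to 0.17. Correlations of paired deviations ran from -0.13 to 0.33. These deviations are from the means of small sets of arrays and so are tied to each other. They cannot decide whether paired arrays share more than a number. All 10 genes were called between runs in every alternative tried. The number of arrays per run limits the values within runs.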
